A study of Mus musculus with 6 samples.

Results

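The dystrophin-glycoprotein complex was followed through 8 of its genes in differentiating C2C12, a mouse line of myoblasts whose cells fuse to multinucleate myotubes once serum is lowered. The genes were chosen by name: dystrophin (Dmd), utrophin (Utrn), dystroglycan (Dag1), the alpha, beta and delta sarcoglycans (Sgca, Sgcb and Sgcd), beta-1 syntrophin (Sntb1) and alpha dystrobrevin (Dtna). They are 8 of the 20659 genes that could be named on the array, and 14 of its 39429 probes carried a RefSeq accession of a member. Of these 14 probes, 12 were well above background on all 6 arrays and 2, both of Dmd, on none, so each of the 8 genes had at least 1 probe to read.

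The si-SYISL cells had received small interfering RNA against SYISL, a long non-coding RNA, and the si-NC cells a control small interfering RNA. Cells of both groups were transfected near confluence and then kept for 2 days in medium with 2% horse serum before total RNA was taken. The data hold 3 single-colour Cy3 arrays for each group, and whether all 3 were separate hybridisations is not known. No probe on the array was assigned to SYISL by the gene table used here, so the knockdown could not be read from these values. The labels give no clone or passage of the line and do not say whether replicates were separate cultures, so each p-value covers only the spread among the samples at hand, which may be technical.

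The complex is a chain through the muscle cell membrane. Dystrophin, or its close relative utrophin, binds actin filaments at its amino end and beta dystroglycan near its carboxyl end. Dystroglycan is made as a single precursor that is cut into an extracellular alpha and a membrane-spanning beta subunit, and sugar chains on the alpha subunit bind laminin in the matrix. The sarcoglycans form a membrane-spanning subcomplex beside dystroglycan, while syntrophins and dystrobrevins sit under the membrane and bring signalling proteins to dystrophin. Loss of dystrophin causes Duchenne muscular dystrophy, and loss of single sarcoglycans causes forms of limb-girdle muscular dystrophy. Utrophin is found along the membrane of immature muscle and is later confined mostly to the neuromuscular and myotendinous junctions.

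In both groups, arrays 1 and 3 were as alike as repeated spots of the same probe, differing by less than that noise, with a chi-square per probe of 0.214 for the si-SYISL pair and 0.252 for the si-NC pair, against 24.7 to 163 for all 13 remaining pairs. Each such pair was therefore merged into a mean, called the merged sample here, and the comparison was of 2 samples against 2. Between 87.9% and 90.6% of spots were well above background on si-SYISL arrays and between 78.2% and 84.6% on si-NC arrays, and 0 spots were saturated. Precision is limited by this number of arrays. Levels are given as scaled intensity, which is the processed signal brought to the same 75th percentile on every array. Differences are log2 values, si-SYISL minus si-NC, with their SE (n = 2 samples in each group), relative to the median difference of all features, which was 0.16. That median was 0.03 under quantile normalization. It was not the same at all brightnesses: over 4 equal bins of features from dim to bright the median was 0.36, 0.17, 0.069 and 0.080. Tests were made on the raw difference, with that median still in it.

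The 8 genes did not share a direction. Dag1 was lower in si-SYISL cells, at 0.467 of its si-NC level before the median was subtracted, and Utrn was higher. Dag1 and Utrn, like Sgca and Dtna, were each read by 1 probe only. The other 6 members lay within 0.32 of the median of all features on the log2 scale. In limma, 0 of the 8 members and 0 of all 28559 features (0%) passed an adjusted p of 0.05. Counted at an unadjusted p under 0.05, 6464 features were past it, or 22.6% of all: 16.8% were higher and 5.85% lower in si-SYISL. The higher share of these calls was 74.1%, against 51.7% under quantile normalization, 51.9% with the deposited log2 values and 57.2% with each array centred on its median. The count past the adjusted threshold was above 0 under some alternatives, up to 9762 with the 6 arrays taken as 6 samples. Of the 8 members 1 was higher (Utrn) and 1 lower (Dag1) at the unadjusted level, or 12.5% of the 8 in each direction, to be read against those shares. Before the median was subtracted, the si-SYISL samples lay above the si-NC samples for 4 members (Dmd, Utrn, Sgca and Sgcd), against 46.3% of all features, and below them for 3 (Dag1, Sgcb and Dtna), against 15.8%. Against the median of features in its own brightness bin, Dmd differed by -0.23, Sntb1 by 0.13, Utrn by 0.45 and Dag1 by -1.18. The other 4 kept their sign by that measure, at 0.34 for Sgca, 0.15 for Sgcd, -0.18 for Sgcb and -0.22 for Dtna. Under quantile normalization Sgca differed by 0.37, Sgcb by -0.16 and Dtna by -0.20. The median difference of the 8 was -0.0017, with a range from -1.26 to 0.35.

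**Figure D1:**
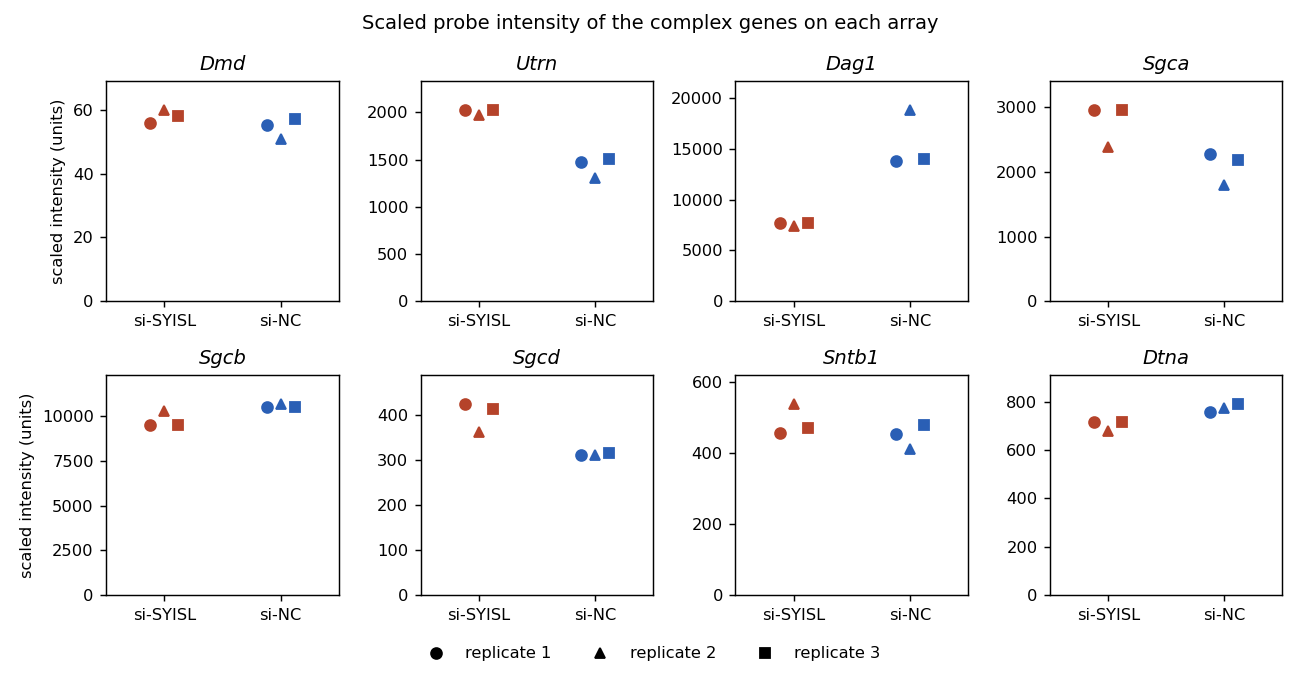
Scaled intensity (units, linear axes from 0) of the brightest probe of each gene on every array, si-SYISL left and si-NC right, with a marker shape for each replicate. Dag1 lies between 7404 and 7702 on the si-SYISL arrays and between 13820 and 18829 on the si-NC arrays, and Dmd and Sntb1 overlap between the groups.

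Dag1, which encodes the link between matrix laminin and the membrane, had a scaled intensity of 7688, 7404 and 7702 on si-SYISL replicates 1 to 3, against 13820, 18829 and 13956 on si-NC replicates 1 to 3. The si-SYISL arrays stood close together and all below the si-NC arrays, among which replicate 2 was the highest. Dag1 differed by -1.26 ± 0.18, a ratio of 0.467 before the median was subtracted, with a limma adjusted p of 0.119. Only 1.06% of all features had a lower difference. Without si-NC replicate 2 the difference was -1.02, and without the merged si-NC sample it was -1.49. Before subtraction it was -1.10 with all samples and -0.88 without si-NC replicate 2. The limma adjusted p of Dag1 was 0.0306 with a variance trend and robust fit together, where 904 features passed 0.05. Dag1 passed it in 3 of the 21 alternatives.

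Dag1 had the difference farthest from 0 among the members, and its promoter is shown beside those of Sgca and Sgcd, which lay on the other side of the median. The RefSeq promoter table for GRCm38.p6 matched 6 of the 8 members. The 250 bases before the annotated start are printed 5′ to 3′ on the strand of the gene, with capitals for the E-box CANNTG, the form bound by MyoD and other basic helix-loop-helix factors, and for the GC box GGGCGG, read on both strands. The windows are chr9:108263959-108264208 (- strand) for the outermost Dag1 start, chr11:94976328-94976577 (- strand) for Sgca and chr11:47379326-47379575 (- strand) for Sgcd.
Dag1: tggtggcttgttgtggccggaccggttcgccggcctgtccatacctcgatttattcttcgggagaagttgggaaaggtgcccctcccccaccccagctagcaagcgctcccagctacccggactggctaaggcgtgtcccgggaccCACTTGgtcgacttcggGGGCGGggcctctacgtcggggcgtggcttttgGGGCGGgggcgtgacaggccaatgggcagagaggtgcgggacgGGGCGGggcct
Sgca: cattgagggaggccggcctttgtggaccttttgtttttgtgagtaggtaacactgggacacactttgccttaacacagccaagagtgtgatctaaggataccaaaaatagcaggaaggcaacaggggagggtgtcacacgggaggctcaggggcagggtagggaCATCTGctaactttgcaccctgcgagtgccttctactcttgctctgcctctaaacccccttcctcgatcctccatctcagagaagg
Sgcd: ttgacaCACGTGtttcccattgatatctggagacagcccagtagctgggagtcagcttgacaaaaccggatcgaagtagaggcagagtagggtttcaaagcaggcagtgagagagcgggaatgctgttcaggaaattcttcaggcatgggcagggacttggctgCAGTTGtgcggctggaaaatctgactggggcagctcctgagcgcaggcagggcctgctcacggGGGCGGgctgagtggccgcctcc
The Dag1 window held 1 E-box and 3 GC boxes at 67.6% G and C. Sgca had 1 E-box and 0 GC boxes at 52.8%, and Sgcd had 2 E-boxes and 1 GC box at 58.0%. Among all 32851 promoters of that length in the table, 66.2% held an E-box and 32.7% a GC box, the median number of E-boxes was 1 and the median share of G and C was 52.4%. None of the 3 held the E-box form CAGCTG (13.0% of all promoters) or CACCTG (17.2%), each counted within the E-boxes. These matches describe the letters of the windows and are not measured sites.

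Utrn, which can stand in for dystrophin at the membrane, had a scaled intensity of 2027, 1967 and 2021 on si-SYISL replicates 1 to 3, against 1477, 1309 and 1508 on si-NC replicates 1 to 3. Every si-SYISL array was above every si-NC array. The difference was 0.35 ± 0.12 (limma adjusted p = 0.149), and 84.8% of all features had a lower one. It ranged from 0.28 without si-NC replicate 2 to 0.48 under quantile normalization and with the deposited log2 values.

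Dmd was dim. Its only probe above background read 55.9, 60.0 and 57.9 units on si-SYISL replicates 1 to 3, against 55.1, 50.9 and 57.0 on si-NC replicates 1 to 3. The arrays overlapped, with si-SYISL replicate 1 below si-NC replicate 3. The median pixel intensity of that spot was 116 to 132 on si-SYISL arrays and 141 to 157 on si-NC arrays, over a local background of 34 to 42.5 on si-SYISL arrays and 36 to 50 on si-NC arrays. Dmd differed by -0.035 ± 0.12 relative to the median and by 0.13 before subtraction (limma adjusted p = 0.512), so that its sign depended on the scaling. Under quantile normalization it differed by -0.17, or by -0.14 before subtraction. The 95% interval of the relative difference ran from -0.35 to 0.28. The other 2 Dmd probes, which carry the same accession, were not well above background on any array, and no difference is given for them. Which dystrophin isoforms each probe reads was not known from the sources used here.

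The sarcoglycans did not share a direction. Sgca, the alpha subunit, whose expression is largely restricted to striated muscle, had 2958, 2383 and 2955 units on si-SYISL replicates 1 to 3, against 2269, 1800 and 2190 on si-NC replicates 1 to 3. The groups did not overlap, and replicate 2 was the lowest array in each. Sgca differed by 0.24 ± 0.18 (limma adjusted p = 0.264). The value rested on single samples: it was 0.056 without the merged si-SYISL sample, 0.45 without si-SYISL replicate 2, 0.11 without si-NC replicate 2 and 0.39 without the merged si-NC sample.

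Sgcd, the delta subunit, read 426, 364 and 414 units on si-SYISL replicates 1 to 3, against 312, 312 and 316 on si-NC replicates 1 to 3. The si-NC arrays agreed closely, and all si-SYISL arrays were above them. Its difference was 0.16 ± 0.13 (limma adjusted p = 0.235) and 0.088 at its other probe, and it came to 0.023 without the merged si-SYISL sample and 0.31 without si-SYISL replicate 2.

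Sgcb, the beta subunit, which is expressed in many tissues, gave 9519, 10313 and 9510 units on si-SYISL replicates 1 to 3, against 10548, 10720 and 10531 on si-NC replicates 1 to 3. All si-SYISL arrays were lower, replicate 2 by the smallest margin. Sgcb differed by -0.26 ± 0.11 (limma adjusted p = 0.581), and its other probes gave -0.35 and -0.33, so that all 3 lay below the median of all features. Before subtraction the brightest probe differed by -0.10.

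The cytoplasmic adaptors were Dtna and Sntb1. Dtna, which binds dystrophin and anchors syntrophins, had 718, 681 and 717 units on si-SYISL replicates 1 to 3, against 759, 774 and 792 on si-NC replicates 1 to 3. The si-SYISL arrays were all lower, by a small margin, and the difference was -0.31 ± 0.11 (limma adjusted p = 0.420) or -0.15 before subtraction. Sntb1 gave different answers at its 2 probes. The brighter one read 457, 539 and 469 units on si-SYISL replicates 1 to 3, against 452, 410 and 478 on si-NC replicates 1 to 3, and the groups overlapped. It differed by 0.031 ± 0.14 (limma adjusted p = 0.422). The dimmer probe read 185, 235 and 172 units on si-SYISL replicates 1 to 3, against 259, 253 and 261 on si-NC replicates 1 to 3, with no overlap and a difference of -0.49 ± 0.17 (limma adjusted p = 0.312 with every probe tested). Both carry the same RefSeq accession, and with the mean of the 2 probes Sntb1 differed by -0.23.

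**Figure D2:**
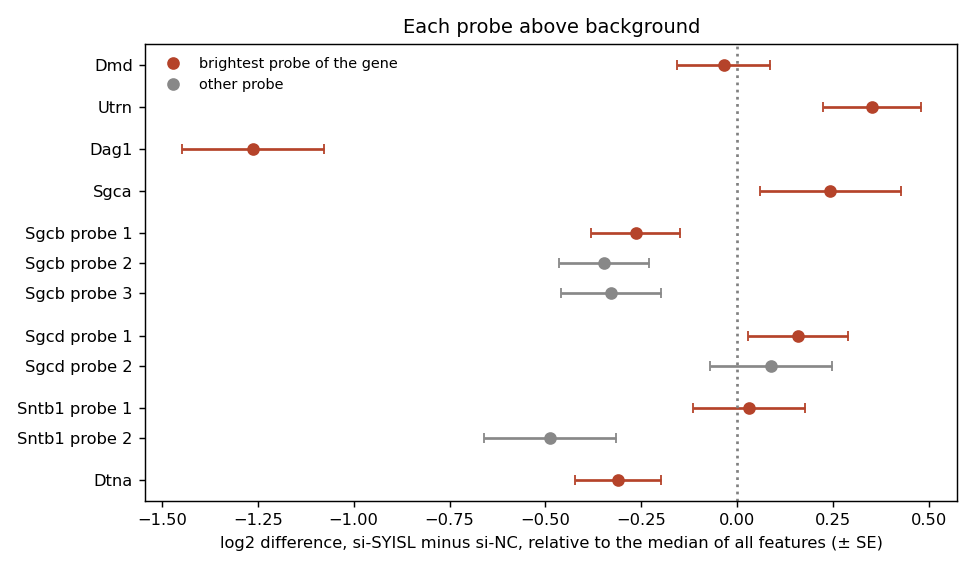
Log2 difference of each of the 12 member probes above background, si-SYISL minus si-NC, relative to the median of all features, with the SE as bars. The 3 Sgcb probes lie together between -0.35 and -0.26, and the 2 Sntb1 probes lie apart at 0.031 and -0.49.

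The file headers put replicates 1 and 2, si-SYISL and si-NC alike, in a first scan and replicate 3 in another. Within the first scan Dag1 differed by -1.26, Utrn by 0.36, Sgca by 0.23, Sgcb by -0.26, Sgcd by 0.17 and Dtna by -0.29, each relative to the median of that scan. Within the other scan, with 1 array in each group, Dag1 differed by -0.95, Utrn by 0.33, Sgca by 0.34, Sgcb by -0.24, Sgcd by 0.30 and Dtna by -0.24. Dmd, at -0.035 and -0.074, kept its sign, while Sntb1 was at 0.042 and -0.12. Replicate 3 of each group differed from replicate 1 by less than the noise between spots, so the scans are not separate readings.

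**Figure D3:**
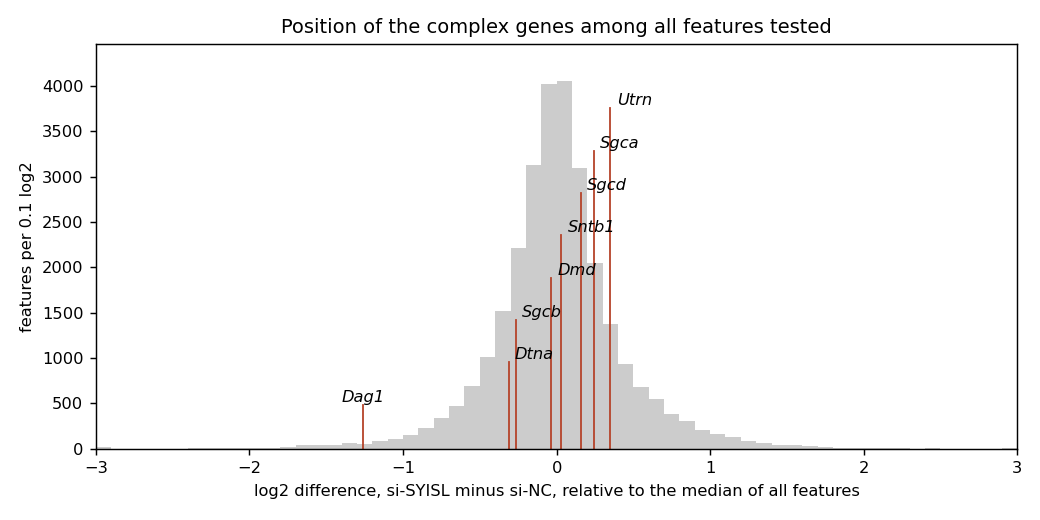
Histogram of the log2 differences of all 28559 features, si-SYISL minus si-NC, relative to their median, in bins of 0.1, with a red line at each of the 8 genes (values beyond 3 in size are counted in the end bins). Line heights differ only to separate the names: Dag1 stands in the lower tail at -1.26 and Utrn on the upper shoulder at 0.35.

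Ratios between members within an array are the same under any scaling that multiplies a whole array by 1 factor, though not under quantile normalization, and 6 ratios chosen by role were formed in each sample. The log2 ratio of Utrn to Dag1 was higher by 1.61 in si-SYISL, a ratio 3.06 times as large, and that of Sgca to Dag1 by 1.51. The ratio of Utrn to Dmd, the pair of alternative cytoskeletal links, was higher by 0.39, with an SD between samples of 0.0827 in si-SYISL and 0.0364 in si-NC. It was higher by 0.65 under quantile normalization or with the deposited log2 values and by 0.49 with normexp background. Among the sarcoglycans, Sgca to Sgcb was higher by 0.51 and Sgcd to Sgcb by 0.42, while Sgca to Sgcd differed by 0.085 and overlapped. Without the merged si-SYISL sample, Sgca to Sgcb was higher by 0.29 and Sgcd to Sgcb by 0.26. For the other 5 ratios every si-SYISL array lay above every si-NC array, with arrays 1 and 3 of each group near-identical. No such share was taken over other pairs of genes. Single features often lay apart, with the si-SYISL samples above for 46.3% of all and below for 15.8%. The ratios restate the differences of the members and add no separate evidence. With 2 samples against 2, the smallest p of a two-sided exact permutation test is 0.333, and those 5 ratios were at it, so none could pass 0.05. Sgca to Sgcd had an exact p of 1.

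**Figure D4:**
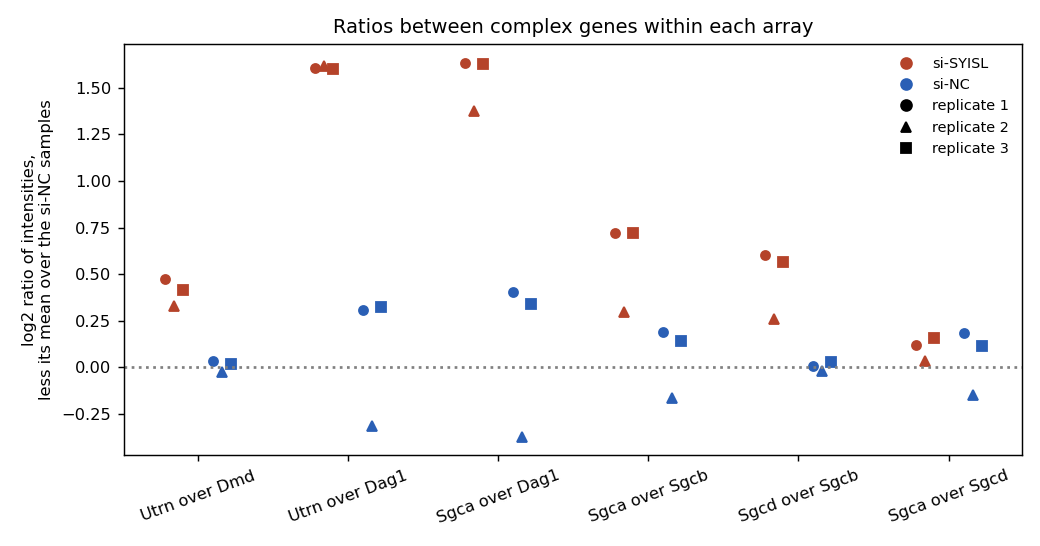
Log2 ratio of intensities between pairs of complex genes on each array, less the mean of that ratio over the si-NC samples, with si-SYISL in red to the left of si-NC in blue and a marker shape for each replicate. The ratios over Dag1 stand farthest apart between the groups, by 1.61 and 1.51, and the ratio of Sgca to Sgcd overlaps.

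Over the 4 samples, the profiles of Dmd and the brighter Sntb1 probe were the closest pair among the members, with a root mean square distance of 0.0623 on the log2 scale, followed by Dtna and Sgcb at 0.0725 and Utrn and Sgca at 0.117. Dag1 was at least 0.50 from every other member. Among all named genes, Tent4b, Ahcyl1 and Sez6l2 had profiles nearest to Dmd, at 0.00648 to 0.00955, and Faim2, Tctex1d4 and Whrn nearest to Utrn, at 0.0137 to 0.0210. With 4 samples and this many genes near profiles are plentiful, and these names are given only as a description.

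The remaining subunits of the complex were measured by 10 genes, with a median difference of -0.067. At an unadjusted p under 0.05, 1 was higher (10.0%) and 0 lower, beside 16.8% and 5.85% of all features. Of the 10 genes, 0 passed the adjusted threshold. The gene that was higher was Sntg2, a gamma syntrophin (0.84 ± 0.19, limma adjusted p = 0.126), which was at 0.46 with normexp background. Sgce, the epsilon sarcoglycan, differed by -0.15 ± 0.12 and the tetraspanin-like sarcospan gene Sspn by -0.31 ± 0.12. Dtnb, the beta dystrobrevin, had a wide error (0.62 ± 0.37), was at 0.27 with the mean of its probes and at 0.11 without si-NC replicate 2. None of Sgce, Sspn and Dtnb had an unadjusted limma p under 0.05. Dtnbp1, a dystrobrevin-binding protein gene, was at 0.12 ± 0.11 and Sntg1 at 0.18 ± 0.14. Sntg1 was well above background on only 1 of 3 si-NC arrays, and its sign turned under quantile normalization.

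Ligands and matrix partners on the outer side numbered 14, with a median of 0.026. Beside 16.8% of all features higher and 5.85% lower at an unadjusted p under 0.05, 3 of the 14 were higher (21.4%) and 0 lower. These were the laminin chain genes Lama4 (0.36 ± 0.11, limma adjusted p = 0.130) and Lamb1 (0.33 ± 0.11, adjusted p = 0.144) and the proteoglycan gene Bgn, whose product binds the complex (0.78 ± 0.30, adjusted p = 0.188). Without si-NC replicate 2, Bgn was at 0.42. With all arrays, the 95% interval of its relative difference ran from -0.025 to 1.58. Lama2, the laminin alpha chain of adult muscle, differed by -0.12 ± 0.11. The 18 genes that build or prime the laminin-binding sugars of dystroglycan had a median of -0.19, where 1 was higher (5.56%) and 2 lower (11.1%) at that level. The lower ones were Pomt2, a mannosyltransferase subunit that starts the sugar chain (-1.18 ± 0.24, limma adjusted p = 0.144), and Rxylt1, a xylosyltransferase (-0.62 ± 0.11, adjusted p = 0.148). Dpm3, part of the enzyme that supplies mannose, was the higher one (0.22 ± 0.14, limma adjusted p = 0.207), and it was at 0.087 without the merged si-SYISL sample. That p tests its raw difference of 0.39, and the 95% interval of its relative difference ran from -0.14 to 0.59. The si-SYISL samples lay below the si-NC samples for 7 of the 18 (38.9%), against 15.8% of all features, and above them for 6 (33.3%), against 46.3%. For the 14 ligands and matrix partners they lay above for 9 (64.3%) and below for 0. Over all 75 genes of the 5 related lists the shares were 45.3% above and 21.3% below. These counts use the raw difference, whose median changed with brightness, so the shares of all features are only a rough background.

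Cytoplasmic partners numbered 22, with a median of -0.025 and with 2 higher and 2 lower at that level (9.09% each). Krt8, a keratin that sits with its partner keratin at the costameres of muscle, differed by 2.26 ± 0.26 (limma adjusted p = 0.0887), or by 1.12 with normexp background. Krt8 was dim in si-NC, at a mean log2 level of -6.07 relative to the 75th percentile, where Dmd was at -5.55. The other keratin of the list, Krt19, was at -0.097 ± 0.13. Cav3, the muscle caveolin that binds beta dystroglycan, differed by 0.68 ± 0.13 (limma adjusted p = 0.110). Sync, a syncoilin that binds alpha dystrobrevin, was lower (-1.18 ± 0.18, limma adjusted p = 0.123). Nos1, the neuronal nitric oxide synthase held by syntrophin, was at 0.15 ± 0.13. Of 11 genes of other systems that stabilise or repair the membrane, 3 were higher (27.3%) and 1 lower (9.09%) at an unadjusted p under 0.05, with a median of -0.042. Trim72, a membrane-repair gene, differed by 0.88 ± 0.14 (limma adjusted p = 0.102) and Dysf by 0.36 ± 0.12 (adjusted p = 0.142). Itgb1, the beta-1 integrin that forms the other laminin receptor of muscle, was lower (-1.23 ± 0.23, limma adjusted p = 0.135), a difference of similar size to that of Dag1, while its muscle partner Itga7 was at -0.28 ± 0.13. Over all 75 genes of these 5 lists the median was -0.042, with 13.3% higher and 6.67% lower at an unadjusted p under 0.05, beside 16.8% and 5.85% of all features. With a variance trend and robust fit together, Krt8, Cav3, Sync, Trim72, Lama4 and Lamb1 passed an adjusted p of 0.05, with values from 0.0177 to 0.0463. Without the merged si-NC sample, Krt8, Sync, Trim72, Bgn and Dtnb did, and without si-NC replicate 2, Krt8 did.

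**Figure D5:**
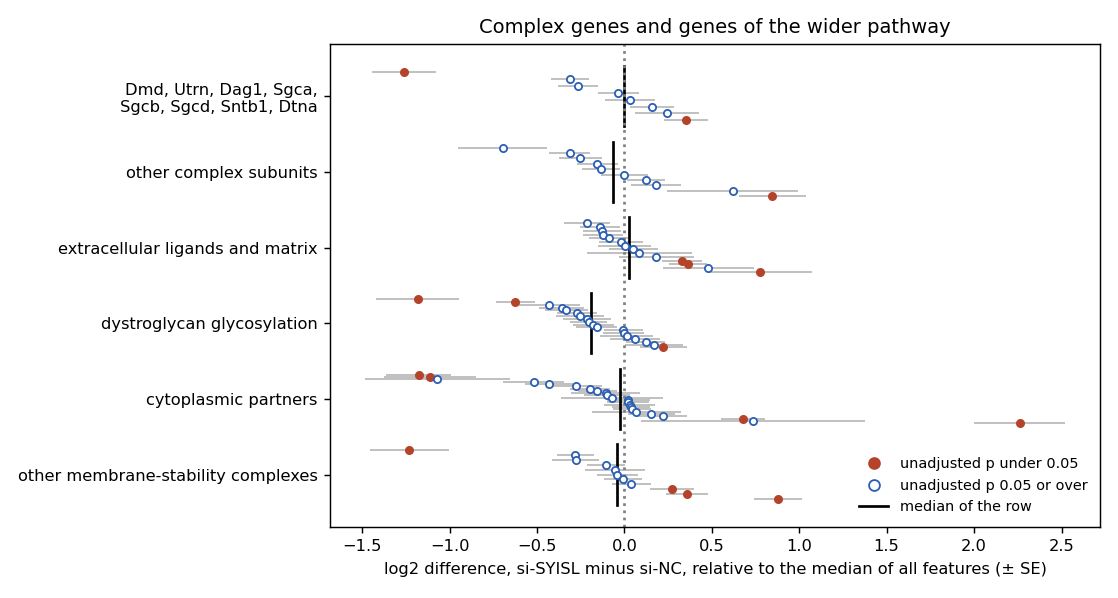
Log2 difference of each gene of the complex and of 5 lists of related genes, si-SYISL minus si-NC, relative to the median of all features, with the SE as grey bars, filled points for an unadjusted limma p under 0.05 and a black line at the median of each row. The medians lie between -0.19 and 0.026, and single genes such as Dag1, Itgb1, Pomt2 and Sync lie below -1.

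All 6 myoblast and all 10 myotube markers were well above background on every array of at least 1 group. So were 6 of 6 fibroblast, 5 of 6 adipocyte, 8 of 8 neural and glial, 5 of 5 endothelial and 5 of 6 macrophage and blood markers. Detection therefore does not tell the labelled cell type from others here. Among the myoblast markers, of which Itga7 and Des also stand in the related lists, 0 were higher and 1 lower at an unadjusted p under 0.05, with a median of -0.23. Of the 10 myotube markers 8 were higher and 0 lower at an unadjusted p under 0.05, and 0 passed an adjusted p of 0.05 in limma. The 8 include Actn2, which was well above background on only 1 of 3 si-NC arrays and so passed the filter through the group where it was high. Myog and Ttn were not among them. The median of the 10 was 0.63, and their summed scaled intensity was 207794 to 216220 units in si-SYISL samples and 122895 to 138249 in si-NC samples. Of 8 proliferation markers 0 were higher and 2 lower at that level, with a median of -0.60. Their summed levels overlapped, at 24774 to 32759 units in si-SYISL and 30601 to 39477 in si-NC. The part of these in the differences of the complex genes was not tested, and in these bulk samples fewer cells of a type and less RNA per cell cannot be told apart. Of markers of other cells, 1 of 6 fibroblast, 1 of 5 measured adipocyte, 1 of 8 neural and glial, 0 of 5 endothelial and 2 of 5 measured macrophage and blood genes were higher at an unadjusted p under 0.05. In the same order 0, 1, 1, 0 and 0 were lower. All marker counts are to be read beside the 16.8% of all features higher and the 5.85% lower at that level. Both of the macrophage and blood genes counted as higher were globin genes, and 1 of them was Hbb-bs. Hbb-bs was well above background on 0 of 3 si-NC arrays. It therefore passed the filter only through si-SYISL, the group where it was high.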

How the data were processed

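Total RNA (1 µg) was labelled with Cy3, per the labels' protocols. The deposited files hold intensity (gProcessedSignal), background-subtracted and detrended within each array by Feature Extraction 11.0.1.1 per the file headers (10.5.1.1 per the submitters' processing notes), the median pixel intensity of spot and background, and flags of 0 or 1 (unit other). The authors' deposited series matrix holds log2 values with nearly equal quantiles on all arrays, and served only as an alternative.

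From each log2 signal the array's own 75th percentile (of its 43020 non-control spots) was taken away. Spots marked as outliers were dropped and a probe's remaining spots averaged. Scaled intensity adds back the mean of the 6 percentiles. Probes were named through their RefSeq accession and a gene table for GRCm38.p6 (27234 of 39429). The array was annotated on another build, so no coordinates are given beyond those of the promoter windows. Probes entered the fit if either group had them well above background on all of its 3 arrays, and the brightest kept probe stood for a gene. This left 28559 features, of which 18635 were named. Groups were compared with limma 3.58.1 in R 4.3.3 (lmFit and eBayes, two-sided, 2 residual and 2.37 prior degrees of freedom), adjusted by Benjamini-Hochberg over all features. The code was tested on simulated data. Tables and figures used the R packages data.table (version 1.17.8) and jsonlite 2.0.0, Python 3.11.15, pandas 2.3.3, numpy 2.4.6 and matplotlib 3.10.9.

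The members and gene lists were chosen with earlier results of these data known. Named genes are the members, the 3 genes with the smallest p of each related list, Sgce, Sspn, Lama2, Dtnb, Nos1, Cav3 and Itga7, and the 3 profiles nearest to Dmd and to Utrn. Hbb-bs and Krt19 were named after their values were seen. Some genes that the rule names are not reported here. Deviations of same-numbered samples from their group means correlated at -0.03 over features, so the numbers were not taken as pairs. Alternatives were normexp background, quantile or median scaling, the deposited log2 values, other filters, other uses of probes and other spread models. Further ones were a block on replicate or scan, the 6 arrays as 6 samples, and leaving out replicates. The ratios under each alternative and the medians by brightness were added after seeing the data. Normexp was run on median rather than mean pixels, the ones the files give.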

Additional observations from a re-analysis of the deposited data

How the results depend on the processing

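Over 21 alternatives, Dmd ranged from -0.17 to 0.026, Dag1 stayed between -1.49 and -1.02, Utrn between 0.28 and 0.48, Sgca between 0.056 and 0.45, Sgcb between -0.31 and -0.16, Sgcd between 0.023 and 0.31 and Dtna between -0.38 and -0.20. Of these 7 only Dmd changed sign. Dag1 had an unadjusted p under 0.05 in 21 of 21 and Utrn in 19, the exceptions being without si-NC replicate 2 and without the merged si-SYISL sample. Without 1 sample, Dmd ranged from -0.081 (without si-NC replicate 2) to 0.026 (without the merged si-NC sample) and Sntb1, over the same settings, from -0.036 to 0.11. Sntb1 was also -0.23 with the mean of probes, -0.016 with 6 arrays as 6 samples and -0.031 without si-SYISL replicate 2. Sntg1 turned to -0.020 with normexp background, -0.14 with quantile normalization and -0.15 with the deposited log2 values, and Nos1 to -0.020 with quantile normalization and -0.017 with the deposited values. Tent4b turned to 0.0058 with normexp, 0.0074 with the filter on all 6 arrays and 0.085 with quantile normalization or the deposited values, where Ahcyl1 was 0.066. Between leaving out si-NC replicate 2 and the merged si-NC sample, Tent4b ranged from -0.073 to 0.041, Ahcyl1 from -0.080 to 0.0083 and Sez6l2 from -0.072 to 0.021. Over the same settings the ratio of Sgca to Sgcd differed by -0.064 to 0.23. The cause was not tested.

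In the main fit 0 features passed an adjusted p of 0.05, but 183 did with normexp background and 904 with a variance trend and robust fit together. With the scan as a block and the shared sample as a random block together, 83 passed. With 6 arrays as 6 samples, 9762 passed and 13485 features had an unadjusted p under 0.05. There the 2 near-identical arrays of each group count as separate samples. The count past the adjusted threshold ranged from 0 to 1381 when samples were left out, with 276 without si-NC replicate 2 and 1381 without the merged si-NC sample. In the fit of 6 arrays as 6 samples 5 members had an unadjusted p under 0.05, and Dag1, Utrn and Sgcd had adjusted p-values of 0.00506, 0.00655 and 0.0178. Without 1 sample that count of members ranged from 1 to 3, being 1 without si-NC replicate 2 or without the merged si-SYISL sample. The members with groups apart numbered 6 to 8. In the main fit the si-SYISL samples lay above for 46.3% of all features and below for 15.8%. At an unadjusted p under 0.05 were 22.6% of all features in that fit. For groups apart, no share of all features was taken under the alternatives. The median difference of the members was -0.13 with the mean of probes. It ranged from -0.059 without si-NC replicate 2 to 0.070 without the merged si-NC sample. With the replicate block, 0 features passed and 3 members (Dag1, Utrn and Sgca) had an unadjusted p under 0.05. Among the named genes Dpm3 was over it with the block. Where 1 sample was left in a group, it was assumed to vary like the other group. Signal over background limits what can be said of Dmd, and of Krt8 in si-NC.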
